A study of Mus musculus with 29 samples.

Results

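The genes described here are those of the ATF4 stress response and the unfolded protein response, measured in C2C12 cells after transfection of 7 microRNA mimics. C2C12 is an established mouse myoblast line whose cells fuse into myotubes. The list has 37 genes of the 19938 measured under a single gene symbol, and every one of the 37 had a probe set. Each gene was read from its probe set with the highest mean over the 27 transfected arrays, so no measured change entered the choice of probe set. The 37 genes were split by role into 20 genes induced by ATF4, 5 sensors and transcription factors, and 12 chaperones and folding or degradation factors of the endoplasmic reticulum.

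Cells at passage 27 received a synthetic mimic at 50 nM, which was of miR-29a, Let-7b, miR-22, miR-1, miR-365, miR-34a or miR-145, or the AllStar negative control, and total RNA was taken after 36 h. Each mimic had 3 arrays, and the control had 3 arrays and a technical repeat of each, which were averaged in pairs to give 3 control values. Untransfected wild type cells, also at passage 27, had 1 array each of a culture labelled myoblast, proliferating at 70% confluence, and of a terminally differentiated culture, the myotube array. The line carries no stated engineered allele, all transfected groups share the same passage, reagent and time, and nothing in the labels says whether same-group samples came from separate cultures thawed apart, so the p-values measure the spread between these repeats of the experiment. All values are log2 expression after robust multi-array averaging (RMA), and a difference of 1 on this scale is a 2-fold difference.

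ATF4 is a transcription factor whose protein is made when the initiation factor eIF2 is phosphorylated, which happens in amino acid shortage, in stress of the endoplasmic reticulum and on viral double-stranded RNA. It raises amino acid transporters, amino acid synthesis genes and a set of stress regulators such as Ddit3 (CHOP) and Trib3. The unfolded protein response has 3 sensors in the membrane of the endoplasmic reticulum: Eif2ak3 (PERK), which phosphorylates eIF2, Ern1 (IRE1), which splices Xbp1 mRNA, and Atf6, which is cleaved to a transcription factor. Spliced XBP1 and cleaved ATF6 raise the chaperones. In muscle cells the response accompanies differentiation of myoblasts. Arrays measure mRNA levels only, so phosphorylation, splicing and cleavage were not measured.

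The mature microRNAs below are given with the seed, bases 2 to 8, in capitals, because the mimics differ by it. They are RefSeq sequences of build GRCm38.p6, and the labels do not state the arm of the mimics, so the arm shown is the one usually meant by the name. Those of miR-1 and miR-145 are named only. No seed is shared between these 5 microRNAs.
let-7b-5p: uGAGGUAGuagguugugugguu
miR-22-3p: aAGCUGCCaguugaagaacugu
miR-29a-3p: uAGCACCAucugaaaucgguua
miR-34a-5p: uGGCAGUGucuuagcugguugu
miR-365-3p: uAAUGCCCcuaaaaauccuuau

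Response elements of the ATF4 and of the unfolded protein response were counted in the promoters of the list. RefSeq promoter windows of 300 bases (250 before and 50 after the gene start, GRCm38.p6) were found for 33 of the 37 genes, and both strands were searched. These genes had 36 windows, as Atf5, Slc7a1 and Vldlr had more than 1. A gene was counted if any of its windows matched, while the shares beside the counts are of single windows. The core of the C/EBP-ATF response element, TGATGNAA, was in the window of 7 of 17 ATF4-induced genes (Asns, Atf3, Chac1, Nupr1, Slc7a11, Trib3 and Vldlr) and of 1 of 12 chaperone genes (Herpud1), against 3.97% of all 32851 windows. The endoplasmic reticulum stress element, CCAAT and CCACG with 9 bases of any kind between, was in none of the 17 and in 7 of the 12 (Calr, Canx, Creld2, Dnajc3, Hsp90b1, Hspa5 and Pdia6), against 0.119% of all windows. Its second form, ATTGG and CCACG with 1 base between, was in Herpud1 and in 0.0365% of all windows, and the unfolded protein response element TGACGTGG was in no window of the list and in 0.676% of all. A match is a description of the letters, and a missing match says nothing about binding.

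The 250 bases before the start of 4 genes show the elements, in capitals, on the gene's strand and 5′ to 3′. Chac1 is at chr2:119350992-119351241 (plus strand), Slc7a11 at chr3:50443614-50443863 (minus strand), Hspa5 at chr2:34771840-34772089 (plus strand) and Herpud1 at chr8:94386179-94386428 (plus strand). Slc7a11 holds a pair of C/EBP-ATF cores facing each other, at positions -66 and -47 from the start, and Herpud1 holds both a C/EBP-ATF core and the second form of the stress element.
Chac1: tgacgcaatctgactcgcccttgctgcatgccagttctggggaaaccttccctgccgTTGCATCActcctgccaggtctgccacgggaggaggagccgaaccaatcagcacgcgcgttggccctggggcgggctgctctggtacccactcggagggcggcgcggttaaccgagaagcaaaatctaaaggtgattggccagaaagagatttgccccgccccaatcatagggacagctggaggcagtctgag
Slc7a11: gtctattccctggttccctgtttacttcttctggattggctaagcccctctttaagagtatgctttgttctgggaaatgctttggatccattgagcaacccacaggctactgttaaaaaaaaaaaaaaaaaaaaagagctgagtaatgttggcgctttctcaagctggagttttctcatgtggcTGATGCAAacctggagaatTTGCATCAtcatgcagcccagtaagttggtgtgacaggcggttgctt
Hspa5: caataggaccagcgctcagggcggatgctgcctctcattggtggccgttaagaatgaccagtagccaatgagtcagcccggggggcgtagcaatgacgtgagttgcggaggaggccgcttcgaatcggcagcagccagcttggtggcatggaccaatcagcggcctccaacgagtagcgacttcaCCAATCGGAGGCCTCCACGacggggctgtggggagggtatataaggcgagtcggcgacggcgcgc
Herpud1: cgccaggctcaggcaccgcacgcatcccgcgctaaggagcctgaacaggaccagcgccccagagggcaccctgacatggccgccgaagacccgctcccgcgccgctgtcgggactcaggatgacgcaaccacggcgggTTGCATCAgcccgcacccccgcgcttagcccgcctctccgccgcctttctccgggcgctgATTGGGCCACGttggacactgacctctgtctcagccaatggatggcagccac

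Some libraries stand apart from their groups and bear on the values that follow. In miR-145 replicate 3 the mean of 8 interferon response genes was 4.90 above the control mean, against 1.41 and 1.23 in replicates 1 and 2. The myotube markers, 7 genes such as Myh3 and Ckm, averaged 12.34 in the untransfected array labelled myoblast, between the 24 transfected values (9.73 to 11.67) and the myotube array (13.04), so that array is called by its label throughout. These markers also moved with the mimics: their list mean stood 0.55 below control with Let-7b, and 0.73, 0.62 and 0.74 above it with miR-1, miR-22 and miR-34a. The marker mean was also above control with miR-29a, by 0.39 (0.13, 0.57 and 0.47 in the 3 samples). With miR-145 and miR-365 it stood 0.32 and 0.21 above. Markers of leukocytes, endothelial cells and adipocytes lay between 4.85 and 7.49 in all samples, and the 6 myoblast markers lay between 9.94 and 13.46 in the transfected samples. The 3 fibroblast markers lay between 6.36 and 13.44 in the transfected samples. In RNA from whole cultures, fewer cells of a type and less RNA per cell cannot be told apart.

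Across the 7 mimics, 36 of the 37 genes varied by limma's F test at an adjusted p under 0.05 (Benjamini-Hochberg over 19938 genes), against 49.4% of all genes. Calr alone missed the threshold, with a limma adjusted p of 0.052. All 37 genes were above the median of the probe sets with no listed gene, 6.67, and well-expressed genes pass more often: without the 40% of genes with the lowest means the share was 77.9%, and all 37 passed. Against the control, limma called 91 gene and mimic pairs, of which 54 held in each alternative processing tried and 37 were lost in at least 1.

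The direction differed by mimic. With miR-29a, 10 of the 20 ATF4-induced genes fell and 1 rose, where 4.78% of all genes fell and 5.54% rose. Among well-expressed genes alone 19.0% were called in either direction. The median change of the 20 genes was -0.32, while the median of all genes was 0.014. With Let-7b and miR-22 the changes were mainly upward, and of the 12 chaperones 7 rose and none fell with each, where 5.46% and 8.82% of all genes rose. With miR-1, 4 chaperones rose and 1 fell, where 23.7% of all genes were called in either direction, and 2 of these 5 calls, Hspa5 and Dnajb9, held in every alternative run. With miR-34a, miR-145 and miR-365 single genes rose and others fell.

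Counted over the whole list, Let-7b raised 18 genes and lowered 1, where 10.9% of all genes were called (5.46% higher and 5.46% lower). miR-1 raised 15 and lowered 2, where 23.7% were called (13.2% higher and 10.5% lower). miR-22 raised 13 and lowered none, where 14.5% were called (8.82% higher and 5.67% lower). miR-29a raised 1 and lowered 14, where 10.3% were called (5.54% higher and 4.78% lower). miR-34a raised 3 and lowered 5, where 11.7% were called (5.62% higher and 6.06% lower). miR-145 raised 3 and lowered 4, where 6.85% were called (3.85% higher and 3.00% lower). miR-365 raised 4 and lowered 8, where 20% were called (11.7% higher and 8.33% lower). Among well-expressed genes alone, after removal of the lowest 40%, the backgrounds were 20.3%, 40.4%, 26.2%, 19.0%, 21.3%, 13.4% and 35.5% in the same order, and 20, 17, 14, 15, 10, 7 and 13 of the 37 genes were called. Under miR-1, miR-34a, miR-145 and miR-365 the called share of the list lay near that background, which makes those counts no result about the list. Whether the miR-22 count, 14 of 37 against 26.2%, exceeds its background was not tested.

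**Figure D1:**
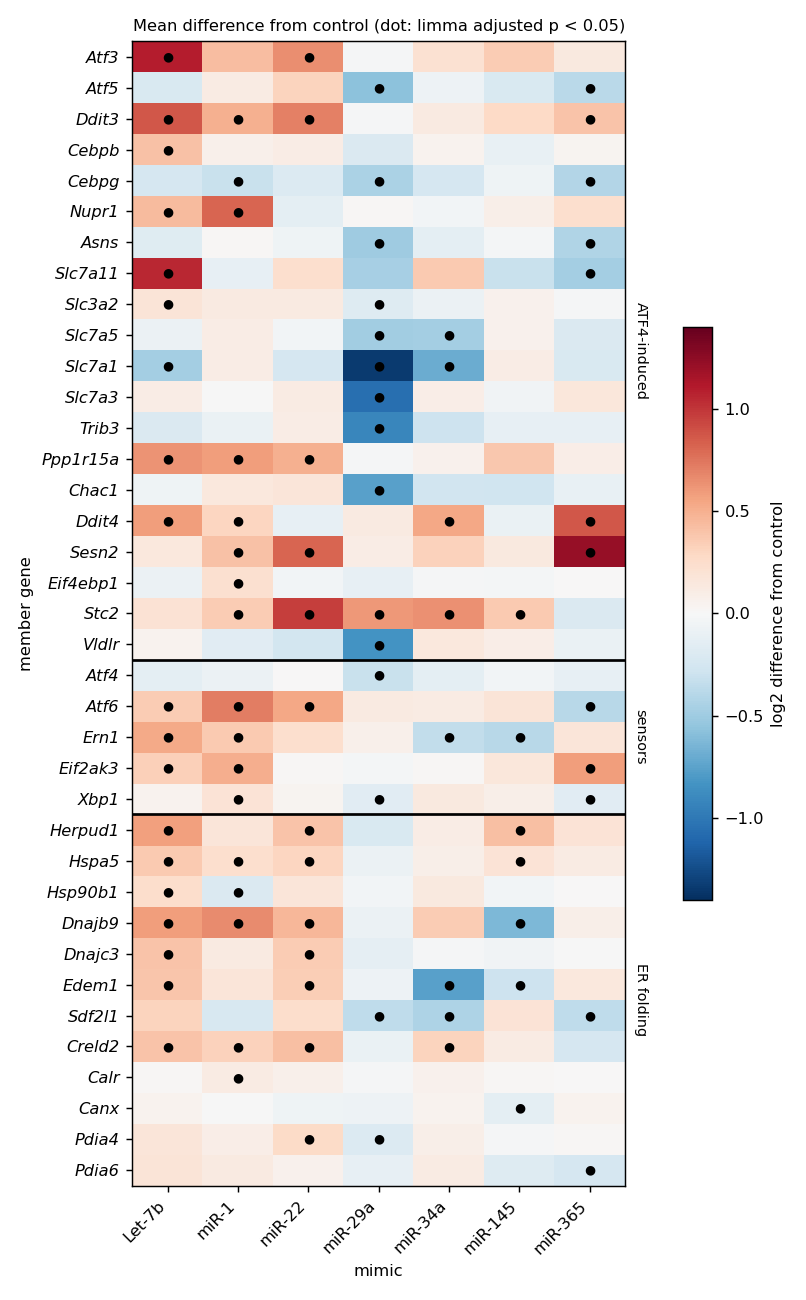
Mean log2 difference from control of the 37 genes (rows, grouped by role) under the 7 mimics (columns), in blue where lower and red where higher; a dot marks a limma adjusted p under 0.05. The miR-29a column has 14 dots on blue, 10 of them among the ATF4-induced genes, and the Let-7b column has 18 dots on red.

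The mean over the 20 ATF4-induced genes, set against the control mean, was -0.31, -0.43 and -0.32 in the 3 miR-29a samples. It was 0.19, 0.18 and 0.28 with Let-7b, 0.17, 0.14 and 0.23 with miR-1, and 0.16, 0.16 and 0.23 with miR-22. Over the 12 chaperones the same means were -0.17, -0.12 and -0.07 with miR-29a, 0.30, 0.23 and 0.39 with Let-7b, and 0.28, 0.21 and 0.27 with miR-22. With miR-1 they were 0.15, 0.05 and 0.20. The miR-29a samples therefore lay below every control sample on both list means, and the Let-7b, miR-1 and miR-22 samples above.

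**Figure D2:**
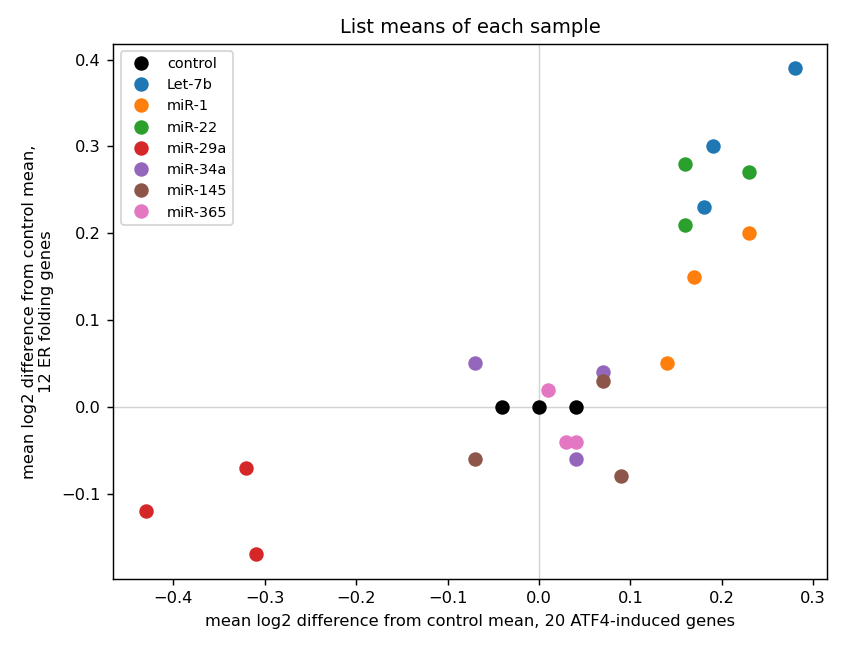
Mean log2 difference from the control mean over the 20 ATF4-induced genes (x axis) and the 12 endoplasmic reticulum genes (y axis), with 1 point for each of 24 sample values, coloured by group. The 3 miR-29a points lie at -0.31 or lower on the x axis, apart from the rest, and the Let-7b points reach 0.39 on the y axis.

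Of the 5 sensors and factors, Atf4 itself fell with miR-29a only slightly. The control values of Atf4 were 10.17, 10.20 and 10.15, and the miR-29a values were 9.95, 9.76 and 9.87, all below the control. The change was -0.31 ± 0.08 (SE), limma adjusted p = 0.01, a 1.24-fold decrease (lost without miR-29a replicate 2, adjusted p up to 0.075). In the other groups the values were 10.20, 9.88 and 10.02 with Let-7b, 10.22, 10.05 and 10.02 with miR-1 and 10.17, 10.18 and 10.17 with miR-22. They were 10.07, 9.99 and 10.06 with miR-34a, 10.25, 10.14 and 10.02 with miR-145 and 10.13, 10.03 and 10.03 with miR-365. No mimic raised Atf4 mRNA past the threshold, and ATF4 protein was not measured.

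Atf6, the sensor cleaved to a transcription factor, moved in opposite directions. Its control values were 10.77, 10.56 and 10.56. They compare with 11.37, 11.24 and 11.43 for miR-1, 11.17, 11.09 and 11.24 for miR-22, 10.95, 10.91 and 11.10 for Let-7b and 10.27, 10.24 and 10.22 for miR-365. The first 3 mimics gave values above every control value and miR-365 values below. The changes were 0.72 ± 0.07 (SE) for miR-1 (limma adjusted p = 1.3e-07), 0.54 ± 0.07 (SE) for miR-22 (limma adjusted p = 1.5e-05), 0.35 ± 0.07 (SE) for Let-7b (limma adjusted p = 0.0017) and -0.39 ± 0.07 (SE) for miR-365 (limma adjusted p = 3.7e-04). With miR-29a, miR-34a and miR-145 the values ran from 10.69 to 10.91 and overlapped the control.

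Ern1 and Eif2ak3 are the kinases of the response. Ern1 rose with Let-7b (0.53 ± 0.11 (SE), limma adjusted p = 0.0021) and with miR-1 (0.37 ± 0.11 (SE), limma adjusted p = 0.015; lost without control replicate 2 or 3 or miR-1 replicate 1, adjusted p up to 0.097), from a control mean of 9.41 ± 0.17 (SD, n = 3). It fell with miR-34a (-0.34 ± 0.11 (SE), limma adjusted p = 0.048; lost without control replicate 1 or 2 or miR-34a replicate 1, 2 or 3 or without the technical repeats, adjusted p up to 0.26) and miR-145 (-0.39 ± 0.11 (SE), limma adjusted p = 0.034; lost without control replicate 1 or 2 or miR-145 replicate 2 or 3 or in a fit of that mimic and the control alone, adjusted p up to 0.26). The miR-145 values of Ern1 overlapped the control. Eif2ak3 rose with miR-365 (0.58 ± 0.10 (SE), limma adjusted p = 1.1e-04), miR-1 (0.51 ± 0.10 (SE), limma adjusted p = 2.9e-04) and Let-7b (0.33 ± 0.10 (SE), limma adjusted p = 0.024; lost without control replicate 2 or 3 or Let-7b replicate 1, 2 or 3, adjusted p up to 0.16). Under miR-29a, miR-22 and miR-34a its mean lay between 8.51 and 8.56, against 8.54 ± 0.15 in the control.

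Xbp1, the transcription factor spliced by the Ern1 product, changed little in total mRNA. Control values were 11.95, 11.97 and 12.02, against 12.13, 12.24 and 12.14 with miR-1, 11.87, 11.84 and 11.75 with miR-29a and 11.78, 11.86 and 11.82 with miR-365. The remaining groups read 11.97, 12.11 and 12.01 for Let-7b, 11.98, 12.05 and 12.04 for miR-22, 12.05, 12.18 and 12.13 for miR-34a and 12.08, 12.09 and 12.02 for miR-145. Only the miR-1 call (0.19 ± 0.05 (SE), limma adjusted p = 0.0071) held in every alternative. The decreases with miR-29a (-0.16 ± 0.05 (SE), limma adjusted p = 0.049; lost without control replicate 1, 2 or 3 or miR-29a replicate 2 or 3, in a fit of that mimic and the control alone, without a variance trend or after a further quantile normalization, adjusted p up to 0.24) and miR-365 (-0.16 ± 0.05 (SE), limma adjusted p = 0.026; lost without control replicate 2 or 3 or miR-365 replicate 1 or 3 or without a variance trend, adjusted p up to 0.12) did not. With the replicate number as a block, the miR-34a difference of 0.14 passed at a limma adjusted p of 0.026.

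Among the 20 ATF4-induced genes, the amino acid transporters Slc7a1 and Slc7a3 had the largest decreases with miR-29a. Slc7a1 and Slc7a3 carry arginine and lysine into the cell, Slc7a5 exchanges large neutral amino acids, and Slc7a11 takes up cystine in exchange for glutamate. Slc3a2 is the partner chain of Slc7a5 and Slc7a11. All of Slc7a1, Slc7a3, Slc7a5 and Slc3a2 fell with miR-29a, and Slc7a11 missed the threshold.

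Slc7a1 read 10.98, 10.84 and 10.87 in the control and 9.94, 9.26 and 9.47 with miR-29a. The change was -1.34 ± 0.12 (SE), limma adjusted p = 2.1e-07, or 2.54-fold, with a 95% interval from -1.60 to -1.08. Its values were 10.27, 10.23 and 10.13 with miR-34a and 10.58, 10.30 and 10.38 with Let-7b, and both lay below every control value. Slc7a1 fell by 0.69 with miR-34a (limma adjusted p = 5.7e-04) and by 0.48 with Let-7b (limma adjusted p = 0.013; lost without control replicate 1 or Let-7b replicate 2 or 3, adjusted p up to 0.071). The other groups read 11.16, 10.88 and 10.94 with miR-1, 10.83, 10.50 and 10.67 with miR-22, 11.09, 10.87 and 11.04 with miR-145 and 10.81, 10.63 and 10.63 with miR-365. Of these, miR-22 passed with the replicate number as a block (-0.23, limma adjusted p = 0.04). Against the mean of the other 6 mimics, miR-29a was lower by 1.11 (SE 0.10, limma adjusted p = 2.1e-08).

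Slc7a3 had control values of 8.97, 9.05 and 9.20 and fell with miR-29a to 8.04, 8.22 and 7.77, with no overlap. The change was -1.06 ± 0.16 (SE), limma adjusted p = 8.3e-05, or 2.09-fold, and held in every alternative. No other mimic passed the test: values were 8.78, 9.44 and 9.31 with Let-7b, 8.76, 9.28 and 9.16 with miR-1 and 9.08, 9.21 and 9.26 with miR-22. They were 8.93, 9.36 and 9.21 with miR-34a, 8.77, 9.21 and 9.10 with miR-145 and 9.13, 9.27 and 9.29 with miR-365. Slc7a3 under miR-29a also differed from the mean of the other 6 mimics, by -1.13 (SE 0.12, limma adjusted p = 5.9e-07). Slc7a5 fell with miR-29a (-0.49 ± 0.08 (SE), limma adjusted p = 2.3e-04) and with miR-34a (-0.48 ± 0.08 (SE), limma adjusted p = 2.6e-04), from 12.83 ± 0.01 in the control, and with a block for the replicate number also with miR-365 (-0.20, limma adjusted p = 0.048). Slc3a2 fell with miR-29a (-0.18 ± 0.06 (SE), limma adjusted p = 0.043; lost without control replicate 1, 2 or 3 or miR-29a replicate 2, in a fit of that mimic and the control alone, without a variance trend or after a further quantile normalization, adjusted p up to 0.29) and rose with Let-7b (0.18 ± 0.06 (SE), limma adjusted p = 0.04; lost without control replicate 1, 2 or 3 or Let-7b replicate 1 or 3, without the technical repeats or without a variance trend, adjusted p up to 0.16). With a block it also rose with miR-22 (0.13, limma adjusted p = 0.024).

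Slc7a11 had the widest range of group means of the list, 1.54, and rose with Let-7b. Its values were 10.07, 10.19 and 10.17 in the control and 11.28, 10.88 and 11.45 with Let-7b, all higher. The increase was 1.06 ± 0.17 (SE), limma adjusted p = 1.5e-04, or 2.08-fold, and the difference from the mean of the other 6 mimics was 1.19 (limma adjusted p = 4.9e-07). Under the same mimic Slc7a1 fell and Slc7a3 was not called. The miR-29a values were 9.57, 9.49 and 9.99 and those of miR-365 were 9.41, 9.88 and 9.70, all below the control. The miR-365 decrease passed (-0.48 ± 0.17 (SE), limma adjusted p = 0.046; lost without control replicate 1, 2 or 3 or miR-365 replicate 1 or 3 or without a variance trend, adjusted p up to 0.24), and the miR-29a difference of -0.46 did not (limma adjusted p = 0.093, and 0.048 with the replicate number as a block). Other groups read 10.07, 9.74 and 10.25 with miR-1, 10.30, 10.34 and 10.49 with miR-22, 10.52, 10.29 and 10.75 with miR-34a and 9.94, 10.06 and 9.51 with miR-145.

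Asns, which makes asparagine, fell with miR-29a and miR-365. Control values were 12.57, 12.75 and 12.79, against 12.25, 12.17 and 12.19 with miR-29a and 12.23, 12.46 and 12.17 with miR-365, and neither overlapped the control. The changes were -0.50 ± 0.08 (SE), limma adjusted p = 1.0e-04 and -0.42 ± 0.08 (SE), limma adjusted p = 3.5e-04. No other mimic passed the test, with values of 12.52, 12.65 and 12.43 for Let-7b, 12.69, 12.76 and 12.71 for miR-1 and 12.60, 12.70 and 12.63 for miR-22. They were 12.39, 12.70 and 12.61 for miR-34a and 12.69, 12.65 and 12.67 for miR-145.

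The feedback regulators divided. Trib3, a pseudokinase that restrains ATF4 activity and AKT, had control values of 9.11, 9.58 and 9.46 and miR-29a values of 8.53, 8.35 and 8.54. The change was -0.91 ± 0.12 (SE), limma adjusted p = 2.2e-05, or 1.88-fold, and all miR-29a values lay below the control. The other groups read 9.21, 9.14 and 9.20 with Let-7b, 9.33, 9.34 and 9.21 with miR-1 and 9.29, 9.62 and 9.56 with miR-22. They read 8.89, 9.34 and 9.07 with miR-34a, 9.31, 9.44 and 9.09 with miR-145 and 9.15, 9.36 and 9.30 with miR-365, and none of them passed. Chac1, which degrades glutathione, fell with miR-29a alone (-0.76 ± 0.13 (SE), limma adjusted p = 2.5e-04), from 10.46 ± 0.18 to 9.70 ± 0.10 (SD, n = 3 each). Ppp1r15a, which directs removal of the phosphate from eIF2, was not called with miR-29a, where its difference was -0.02 (95% interval -0.29 to 0.26). It rose with Let-7b (0.63 ± 0.13 (SE), limma adjusted p = 0.0021), miR-1 (0.58 ± 0.13 (SE), limma adjusted p = 0.0018) and miR-22 (0.50 ± 0.13 (SE), limma adjusted p = 0.011; lost without control replicate 3 or miR-22 replicate 1, adjusted p up to 0.077).

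Ddit3, the transcription factor CHOP, was not called with miR-29a either. Control values were 9.0, 8.98 and 8.95 and miR-29a values 9.03, 8.75 and 9.11, a difference of -0.02 (95% interval -0.31 to 0.27). It rose with Let-7b to 9.80, 9.58 and 10.16, with miR-22 to 9.72, 9.48 and 9.88 and with miR-1 to 9.57, 9.25 and 9.64, all above the control values. The increases were 0.87 ± 0.14 (SE), limma adjusted p = 1.8e-04 for Let-7b, 0.71 ± 0.14 (SE), limma adjusted p = 9.8e-04 for miR-22 and 0.50 ± 0.14 (SE), limma adjusted p = 0.0095 for miR-1 (lost without miR-1 replicate 3, adjusted p up to 0.064). With miR-365 the values were 9.39, 9.25 and 9.48, and the increase of 0.40 (limma adjusted p = 0.047) did not hold throughout (lost without control replicate 1, 2 or 3 or miR-365 replicate 1 or 3 or after a further quantile normalization, adjusted p up to 0.18). The miR-34a and miR-145 values were 9.04, 8.99 and 9.31 and 9.46, 9.20 and 9.13, and neither passed.

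Atf3, another transcription factor of the stress response, rose with Let-7b and miR-22. Its values were 8.74, 8.71 and 8.44 in the control, 9.84, 9.30 and 10.03 with Let-7b and 9.5, 8.96 and 9.38 with miR-22. The increases were 1.1 ± 0.21 (SE), limma adjusted p = 9.1e-04 (2.14-fold) and 0.65 ± 0.21 (SE), limma adjusted p = 0.038 (lost without control replicate 1, 2 or 3 or miR-22 replicate 1 or 3, adjusted p up to 0.16). Values with miR-1 were 9.18, 8.71 and 9.29, with miR-29a 8.73, 8.23 and 8.85 and with miR-34a 9.0, 8.55 and 8.97. Those with miR-145 were 9.26, 8.60 and 9.08 and with miR-365 8.93, 8.55 and 8.84. Sample 2 was the lowest of its group in all 7 mimics, but not in the control.

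Of the other transcription regulators, Atf5 fell with miR-29a (-0.57 ± 0.13 (SE), limma adjusted p = 0.0056) and miR-365 (-0.38 ± 0.13 (SE), limma adjusted p = 0.043; lost without control replicate 1, 2 or 3 or miR-365 replicate 1 or 3 or without the technical repeats, adjusted p up to 0.2). Cebpg, a dimer partner of ATF4, fell with miR-29a (-0.44 ± 0.10 (SE), limma adjusted p = 0.0056), miR-365 (-0.41 ± 0.10 (SE), limma adjusted p = 0.0053) and miR-1 (-0.31 ± 0.10 (SE), limma adjusted p = 0.029; lost without control replicate 2 or 3 or miR-1 replicate 1 or 3, adjusted p up to 0.13). With a block for the replicate number it also fell with miR-22 (-0.19, limma adjusted p = 0.032) and miR-34a (-0.24, limma adjusted p = 0.0085). Its mean fell from 9.63 ± 0.10 in the control to 9.19 ± 0.07 with miR-29a. Cebpb rose with Let-7b only (0.41 ± 0.13 (SE), limma adjusted p = 0.035; lost without control replicate 1, 2 or 3 or Let-7b replicate 3 or in a fit of that mimic and the control alone, adjusted p up to 0.31). Nupr1, a stress-induced chromatin cofactor, rose with miR-1 (0.81 ± 0.08 (SE), limma adjusted p = 2.4e-07) and Let-7b (0.44 ± 0.08 (SE), limma adjusted p = 9.4e-04), from 11.09 ± 0.03. With a block it also passed with miR-365 (0.23, limma adjusted p = 0.034).

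Sesn2 and Ddit4, which both damp mTOR signalling, were highest with miR-365. Sesn2 read 9.71, 9.70 and 9.77 in the control and 10.94, 10.72 and 11.17 with miR-365. The increase was 1.22 ± 0.13 (SE), limma adjusted p = 3.4e-07, or 2.33-fold, the largest of the list in either direction apart from the Slc7a1 decrease with miR-29a. It rose with miR-22, to 10.49, 10.33 and 10.79 (0.81 ± 0.13 (SE), limma adjusted p = 1.2e-04), and with miR-1, to 9.90, 10.11 and 10.40 (0.41 ± 0.13 (SE), limma adjusted p = 0.021; lost without control replicate 1 or 2 or miR-1 replicate 3, adjusted p up to 0.18). Other values were 9.76, 9.90 and 9.98 with Let-7b, 9.75, 9.71 and 10.02 with miR-29a, 9.98, 9.92 and 10.22 with miR-34a and 9.84, 9.86 and 9.90 with miR-145. With a block for the replicate number miR-34a passed too (0.32, limma adjusted p = 0.0085).

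Ddit4 values were 9.98, 9.99 and 9.88 in the control and rose to 10.64, 10.75 and 11.09 with miR-365, 10.40, 10.63 and 10.61 with Let-7b and 10.39, 10.56 and 10.53 with miR-34a. The increases were 0.87 ± 0.11 (SE), limma adjusted p = 2.7e-06, 0.59 ± 0.11 (SE), limma adjusted p = 5.6e-04 and 0.54 ± 0.11 (SE), limma adjusted p = 0.0013, and the values overlapped the control in none of the 3. The miR-1 values of 10.15, 10.35 and 10.28 gave an increase of 0.30 (limma adjusted p = 0.041; lost without control replicate 1, 2 or 3 or miR-1 replicate 2 or 3 or after a further quantile normalization, adjusted p up to 0.14). The remaining values were 9.74, 9.90 and 9.86 with miR-22, 10.04, 10.11 and 10.09 with miR-29a and 9.89, 10.07 and 9.62 with miR-145. Eif4ebp1, a repressor of cap-dependent translation, rose with miR-1 by 0.22 (limma adjusted p = 0.0045; 0.058 when only miR-1 and control samples were fitted) and by no other mimic.

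Stc2, a secreted glycoprotein, was the 1 ATF4-induced gene that rose with miR-29a, where 10 fell. Its control values were 8.76, 8.75 and 8.69, and it rose with miR-22 (9.67, 9.54 and 9.92), miR-34a (9.40, 9.32 and 9.41) and miR-29a (9.41, 9.30 and 9.32). The increases were 0.97 ± 0.11 (SE), limma adjusted p = 1.0e-06, 0.64 ± 0.11 (SE), limma adjusted p = 2.0e-04 and 0.61 ± 0.11 (SE), limma adjusted p = 4.0e-04, so that Stc2 was 1.52-fold higher with miR-29a where Slc7a1 was 2.54-fold lower. It also rose with miR-1 (9.24, 9.01 and 9.0; by 0.35, limma adjusted p = 0.018) and miR-145 (9.14, 9.18 and 9.0; by 0.37, limma adjusted p = 0.036). Of the last pair, the miR-1 call (lost without control replicate 3 or miR-1 replicate 1, adjusted p up to 0.1) and the miR-145 call (lost without control replicate 1, 2 or 3 or miR-145 replicate 1 or 2 or in a fit of that mimic and the control alone, adjusted p up to 0.13) depended on single libraries. Let-7b values were 9.0, 8.72 and 9.07 and miR-365 values 8.60, 8.67 and 8.34.

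Vldlr, the very low density lipoprotein receptor, fell with miR-29a alone. Control values were 8.26, 8.34 and 8.47 and miR-29a values 7.47, 7.64 and 7.46, a change of -0.84 ± 0.13 (SE), limma adjusted p = 1.8e-04, or 1.78-fold. The others read 8.29, 8.65 and 8.28 with Let-7b, 8.04, 8.45 and 8.11 with miR-1 and 7.96, 8.35 and 7.99 with miR-22. They read 8.37, 8.63 and 8.53 with miR-34a, 8.23, 8.71 and 8.39 with miR-145 and 8.21, 8.42 and 8.19 with miR-365. With a block the miR-22 difference of -0.26 passed as well (limma adjusted p = 0.03). All 3 miR-29a values lay below the lowest value of every other transfected group.

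**Figure D3:**
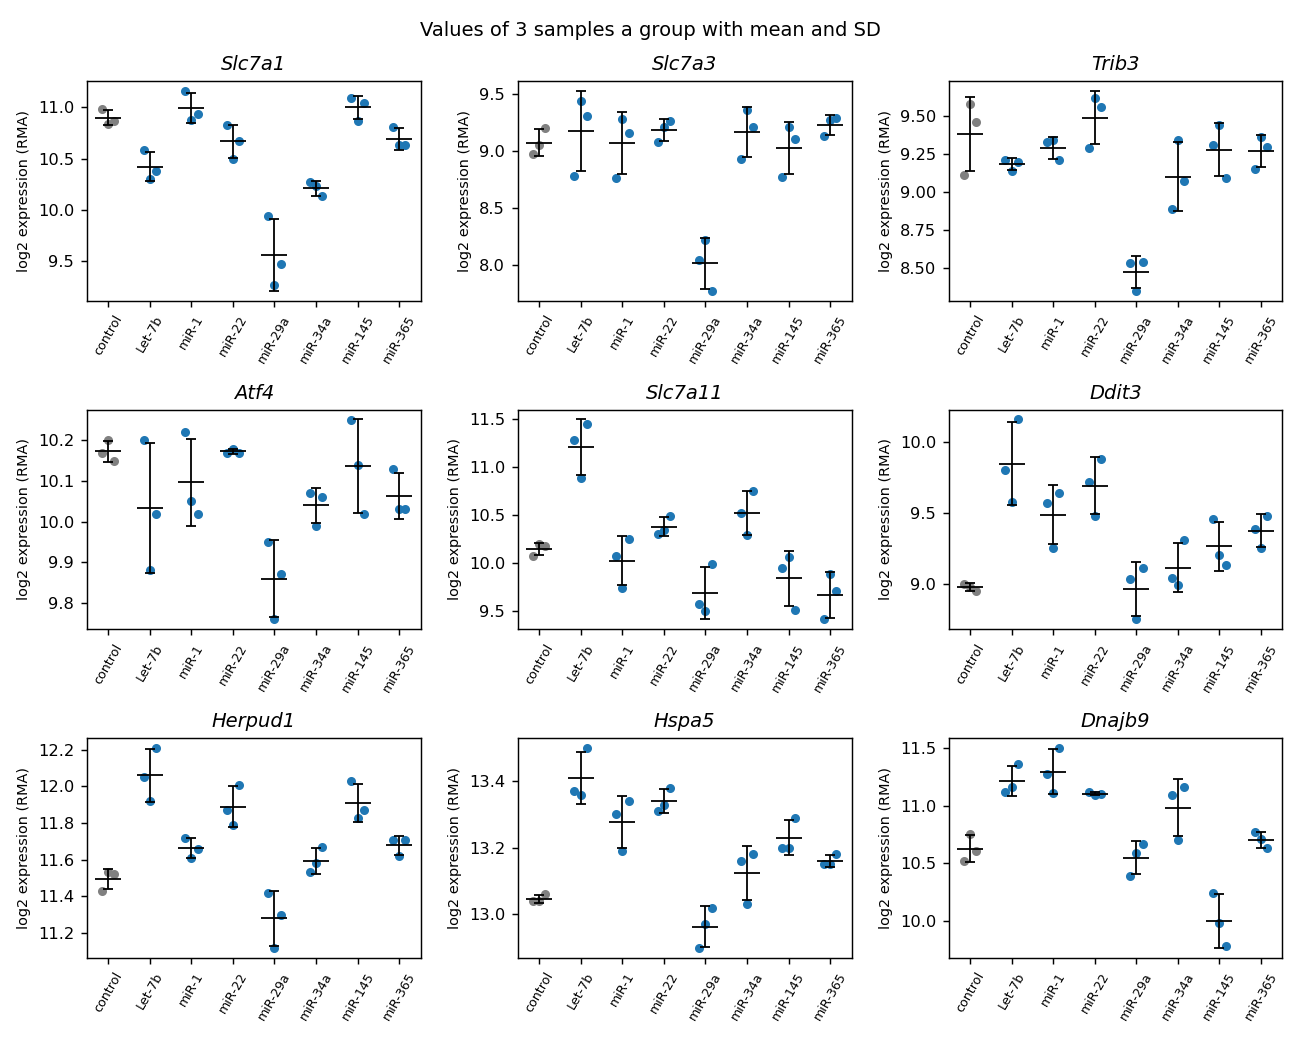
Log2 expression of 9 genes in each of 3 samples per group (points; control grey), with the mean (horizontal bar) and SD (error bar). Slc7a1, Slc7a3 and Trib3 were lowest with miR-29a (means 9.56, 8.01 and 8.47), Slc7a11 was highest with Let-7b (11.20), and Dnajb9 was lowest with miR-145 (10.00).

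Of the 12 endoplasmic reticulum genes, 7 rose with Let-7b (median change 0.34 over the 12) and 7 with miR-22 (median 0.29), and 6 genes rose with both in each alternative tried: Herpud1, Hspa5, Dnajb9, Dnajc3, Edem1 and Creld2. The 2 comparisons share the control samples. With miR-29a all 12 differences were negative, from -0.36 to -0.02, with a median of -0.08. Of these, 2 passed (Sdf2l1 and Pdia4), where 4.78% of all genes fell, and neither call held in every alternative. Among well-expressed genes 19.0% were called in either direction under miR-29a, so this count is no result about the 12 genes.

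Hspa5, the chaperone BiP, read 13.04, 13.04 and 13.06 in the control. It rose to 13.37, 13.36 and 13.50 with Let-7b, 13.31, 13.33 and 13.38 with miR-22 and 13.30, 13.19 and 13.34 with miR-1. The increases were 0.37 ± 0.05 (SE), limma adjusted p = 1.6e-05, 0.30 ± 0.05 (SE), limma adjusted p = 1.5e-04 and 0.23 ± 0.05 (SE), limma adjusted p = 7.8e-04, at most 1.29-fold. With miR-145 the values were 13.20, 13.20 and 13.29 (increase 0.19, limma adjusted p = 0.019; lost without control replicate 1, 2 or 3 or miR-145 replicate 3 or without a variance trend, adjusted p up to 0.12). The others read 12.90, 12.97 and 13.02 with miR-29a, 13.16, 13.03 and 13.18 with miR-34a and 13.15, 13.15 and 13.18 with miR-365, and the last passed with a block (0.11, limma adjusted p = 0.027).

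Herpud1, a factor in degradation of misfolded proteins, had control values of 11.43, 11.53 and 11.52. It rose to 12.05, 11.92 and 12.21 with Let-7b, 12.03, 11.83 and 11.87 with miR-145 and 11.87, 11.79 and 12.01 with miR-22. The increases were 0.57 ± 0.08 (SE), limma adjusted p = 2.9e-05, 0.42 ± 0.08 (SE), limma adjusted p = 0.0015 and 0.40 ± 0.08 (SE), limma adjusted p = 0.001, all held in every alternative. With miR-29a the values were 11.42, 11.12 and 11.30, a difference of -0.21 (limma adjusted p = 0.10, and 0.028 with the replicate block). Against the mean of the other 6 mimics Herpud1 was lower with miR-29a by 0.52 (limma adjusted p = 1.6e-06). The other groups read 11.72, 11.61 and 11.66 with miR-1, 11.53, 11.58 and 11.67 with miR-34a and 11.71, 11.62 and 11.71 with miR-365, and miR-365 passed with a block (0.19, limma adjusted p = 0.032).

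Dnajb9, a co-chaperone of Hspa5, rose with 3 mimics and fell with miR-145. Control values were 10.52, 10.75 and 10.61, against 11.27, 11.11 and 11.50 with miR-1, 11.12, 11.16 and 11.36 with Let-7b and 11.12, 11.09 and 11.10 with miR-22. The increases were 0.66 ± 0.12 (SE), limma adjusted p = 2.1e-04, 0.58 ± 0.12 (SE), limma adjusted p = 0.002 and 0.47 ± 0.12 (SE), limma adjusted p = 0.0089. The miR-145 values were 10.24, 9.98 and 9.78, and the change of -0.63 ± 0.12 (SE), limma adjusted p = 0.0018 was called with and without replicate 3 of that mimic. Values were 10.39, 10.59 and 10.67 with miR-29a, 11.09, 10.70 and 11.16 with miR-34a and 10.77, 10.71 and 10.63 with miR-365. The miR-34a difference of 0.35 passed with a block (limma adjusted p = 0.039).

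Edem1, a lectin that extracts misfolded glycoproteins, fell with miR-34a. Control values were 11.01, 10.90 and 10.93 and miR-34a values 10.21, 10.31 and 10.03, a change of -0.76 ± 0.07 (SE), limma adjusted p = 1.4e-07, or 1.70-fold. It rose with Let-7b (11.38, 11.32 and 11.31; by 0.39, limma adjusted p = 6.5e-04) and miR-22 (11.29, 11.28 and 11.28; by 0.34, limma adjusted p = 0.002). With miR-145 the values were 10.76, 10.72 and 10.50 and Edem1 fell by 0.29 (limma adjusted p = 0.015; lost without control replicate 1 or miR-145 replicate 3 or in a fit of that mimic and the control alone, adjusted p up to 0.13). Values were 11.11, 11.10 and 11.13 with miR-1, 10.92, 10.95 and 10.77 with miR-29a and 11.10, 11.06 and 11.11 with miR-365. Against the mean of the other 6 mimics Edem1 under miR-34a was lower by 0.88 (limma adjusted p = 1.9e-10).

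The remaining chaperones moved less. Creld2, a protein of the disulfide isomerase type, rose with Let-7b (0.40), miR-22 (0.42), miR-1 (0.32; lost without miR-1 replicate 3, adjusted p up to 0.084) and miR-34a (0.31; lost without control replicate 1, 2 or 3 or miR-34a replicate 1 or 3 or without the technical repeats, adjusted p up to 0.1). With a block Creld2 also fell with miR-365 (-0.23, limma adjusted p = 0.017). Dnajc3, an inhibitor of eIF2 kinases, rose with Let-7b (0.40) and miR-22 (0.35). Sdf2l1, a component of a chaperone complex, fell with miR-34a (-0.43; lost without miR-34a replicate 3, adjusted p up to 0.068), miR-29a (-0.36; lost without control replicate 1, 2 or 3 or miR-29a replicate 1, 2 or 3, adjusted p up to 0.21) and miR-365 (-0.36; lost without control replicate 1 or 2 or miR-365 replicate 2 or 3, adjusted p up to 0.12). It rose with miR-22 under a block (0.25, limma adjusted p = 0.021).

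Hsp90b1, a chaperone of secreted proteins, rose with Let-7b (0.25; lost without control replicate 2 or Let-7b replicate 3, adjusted p up to 0.085) and fell with miR-1 (-0.20; lost without control replicate 3 or miR-1 replicate 1 or 2, adjusted p up to 0.11), and under a block it rose with miR-22 (0.17, limma adjusted p = 0.023). The disulfide isomerase Pdia4 rose with miR-22 (0.27; lost with the mean of its probe sets, adjusted p up to 0.1) and fell with miR-29a (-0.19; lost without control replicate 1 or 3 or miR-29a replicate 1, 2 or 3, in a fit of that mimic and the control alone, without a variance trend, after a further quantile normalization or with the mean of its probe sets, adjusted p up to 0.23). Pdia6, another isomerase, fell with miR-365 (-0.24; lost without control replicate 1 or miR-365 replicate 3, adjusted p up to 0.064). Calr and Canx, the lectin chaperones, had the narrowest ranges of group means, 0.14 and 0.20. Calr rose with miR-1 (0.12; lost without control replicate 1 or 3 or miR-1 replicate 3, without the technical repeats, in a fit of that mimic and the control alone or without a variance trend, adjusted p up to 0.14) and Canx fell with miR-145 (-0.14; lost without control replicate 2 or 3 or miR-145 replicate 1, 2 or 3, in a fit of that mimic and the control alone, without a variance trend or after a further quantile normalization, adjusted p up to 0.14).

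Against the mean of the other 6 mimics, miR-29a gave lower values in 27 of the 37 genes and higher in none, where 8.26% and 8.80% of all genes were called. Of the 20 ATF4-induced genes, 17 were lower, and Ddit3, Atf3, Sesn2 and Ppp1r15a were among them, each lower by 0.39 to 0.50 although none was called against the control. Let-7b was higher than the other 6 in 19 genes and lower in 2, where 8.19% and 10.3% of all genes were called. miR-1 was higher in 16 and lower in 1 (15% and 13.7%, 28.7% in either direction), and miR-22 higher in 16 and lower in 3 (9.45% and 6.33%). miR-34a was higher in 5 and lower in 9 (5.90% and 8.18%), miR-145 higher in 6 and lower in 9 (10.3% and 8.59%), and miR-365 higher in 4 and lower in 10 (15.8% and 11.3%). The 7 comparisons with the mean of the others share samples. The percentages here are of all genes, and against the control well-expressed genes were called more often (40.4% under miR-1, where 23.7% of all genes were). The share of well-expressed genes called against the other 6 mimics was not computed. Whether the counts of any mimic in these comparisons exceed that share was therefore not tested. In 20 of the 37 genes all 3 miR-29a values lay below every control value, against 11.3% of all genes. For this count too the share among well-expressed genes was not computed.

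Further genes linked to ATF4 were read in the same fit. Like the list itself they were chosen with earlier results of these data known, so their counts are no independent support. Of 26 such genes, 13 fell and none rose with miR-29a, where 4.78% of all genes fell, with a median change of -0.26. Cth, which makes cysteine, fell by 1.15 (limma adjusted p = 1.8e-07), Slc1a5, a glutamine transporter, by 0.90 (limma adjusted p = 0.0011) and Slc6a9, a glycine transporter, by 0.68 (limma adjusted p = 1.0e-04). The serine enzyme Psat1 fell by 0.52 with miR-29a and by 1.64 with miR-34a (limma adjusted p = 6.8e-10), where Mthfd2, a mitochondrial folate enzyme, fell by 0.91. Of 11 aminoacyl-tRNA synthetases, 5 fell with miR-29a and none rose, and Wars and Yars fell with miR-22 by 0.77 and 0.74. miR-1 raised 9 of the 26 and lowered none, where 13.2% of all genes rose and 10.5% fell, with Fgf21, a hormone, at 0.70. Among well-expressed genes 40.4% were called in either direction under miR-1, so this count is no result about the 26 genes. For the other mimics the counts of higher and lower genes among the 26 were 3 and 4 with Let-7b (5.46% and 5.46% of all genes), 4 and 5 with miR-22 (8.82% and 5.67%) and 2 and 4 with miR-34a (5.62% and 6.06%). They were 3 and 0 with miR-145 (3.85% and 3.00%) and 5 and 2 with miR-365 (11.7% and 8.33%).

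Genes that control translation through eIF2 were read in the same way. Of 11, miR-1 raised 7 and lowered none, where 13.2% of all genes rose and 10.5% fell. Among well-expressed genes 40.4% were called in either direction under miR-1, and whether 7 of 11 exceeds that share was not tested. Let-7b and miR-22 each raised 1 and lowered 1, miR-34a raised 1 and lowered 2, miR-365 raised 2 and lowered none, and with miR-145 none passed, where 10.9%, 14.5%, 11.7%, 20% and 6.85% of all genes were called. miR-29a raised 2 and lowered 3, where 5.54% of all genes rose and 4.78% fell, and among the 3 were Ppp1r15b, which keeps eIF2 dephosphorylated (-0.51, limma adjusted p = 9.5e-05), and Eif2b1, a subunit of its exchange factor (-0.58, limma adjusted p = 1.1e-04). Impact, an inhibitor of the amino acid sensing kinase, rose with 6 of the 7 mimics, by 0.42 to 0.84, and with miR-145 its values of 11.03, 10.65 and 10.61 overlapped the control. Eif2ak2, the kinase activated by double-stranded RNA, was higher with miR-365 by 0.82 (limma adjusted p = 0.038) and differed by 0.85 with miR-145 without passing (limma adjusted p = 0.071), with values of 8.73, 8.87 and 10.62. The highest of them, sample 3, is also the one with the highest mean of the interferon genes, which stood above the control mean in all 3 samples.

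Among 23 further genes of the endoplasmic reticulum, 6 rose and 1 fell with Let-7b, where 5.46% of all genes rose and 5.46% fell, and 7 rose and none fell with miR-22 (8.82% and 5.67%). With miR-1 7 rose and 3 fell (13.2% and 10.5%), and with miR-365 6 rose and 5 fell (11.7% and 8.33%). The counts were 2 and 3 with miR-29a (5.54% and 4.78%), 1 and 4 with miR-34a (5.62% and 6.06%), and 2 and 2 with miR-145 (3.85% and 3.00%). Among well-expressed genes 40.4% were called in either direction under miR-1, 35.5% under miR-365 and 26.2% under miR-22. That share was 21.3% under miR-34a, 19.0% under miR-29a and 13.4% under miR-145. The counts under these mimics are therefore no result about the 23 genes. With Let-7b the share was 20.3%, and whether its count exceeds that was not tested. Ero1b, an oxidase of the disulfide pathway, rose with Let-7b by 1.06 (limma adjusted p = 3.8e-06) and Ero1a with miR-22 by 0.70 (limma adjusted p = 5.1e-05). Syvn1, the ligase that marks misfolded proteins, rose with miR-1 by 0.71 (limma adjusted p = 0.0011). Tram1, of the translocation channel, fell by 0.91 with miR-365 (limma adjusted p = 4.5e-11).

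Leaving out single samples moved the counts of called genes with miR-1 (17) to 11 without control replicate 3 or miR-1 replicate 3, with miR-34a (8) to 5 without miR-34a replicate 3, and with miR-365 (12) to 7 without control replicate 1 or 2 and to 6 without miR-365 replicate 3. The count with miR-29a (15) fell to 10 without miR-29a replicate 2, and that with Let-7b (19) to 14 without Let-7b replicate 3. For miR-22 (13) the lowest count was 11. With miR-145 (7) the count was 3 without control replicate 1, control replicate 2 or miR-145 replicate 3, and 4 without control replicate 3 or miR-145 replicate 2. Without miR-145 replicate 3, Herpud1, Stc2 and Dnajb9 were still called and Canx, Edem1, Ern1 and Hspa5 were not. The myotube markers moved with several mimics that changed the list, and their part in these results was not tested. Of 7 markers, 6 were called higher under miR-1, 5 under miR-34a, 4 under miR-22 and 2 under miR-29a. In the same order 13.2%, 5.62%, 8.82% and 5.54% of all genes rose. Under miR-145 1 marker was called higher (3.85%) and under miR-365 none (11.7%). Under Let-7b 2 were lower, where 5.46% of all genes fell. Among well-expressed genes 40.4% were called in either direction under miR-1. Interferon genes were called higher with miR-145 only, 7 of 8 by the test, where 3.85% of all genes rose. The part of the interferon genes was not tested either.

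The untransfected array labelled myoblast and the myotube array are 1 each, so their differences have no replicate check and no p-value. The former held all 7 myotube markers at least 1.5-fold above the control mean, so the values below compare these 2 arrays as labelled. A difference of at least 1.5-fold was counted. The list had 11 of 37 genes lower in the myotube array and none higher, where 6.11% of all genes were lower and 7.42% higher. The share among well-expressed genes was not computed for these 2 arrays. Whether 11 of 37 exceeds it was therefore not tested. Of the 11, 8 were ATF4-induced and 3 were chaperones (Edem1, Sdf2l1 and Creld2), and the median difference of the 20 ATF4-induced genes was -0.49, against -0.02 over all genes. At 2-fold the count was 4.

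Slc7a11 read 10.24 in the array labelled myoblast and 7.20 in the myotube array, a difference of -3.04 or 8.21-fold, and the myotube value lay below the lowest of the 24 transfected values, 9.41. Slc7a3 read 10.03 in the array labelled myoblast and 8.04 in the myotube array, 3.97-fold lower. Vldlr read 8.74 in the array labelled myoblast and 7.51 in the myotube array (2.34-fold), Chac1 10.68 in the array labelled myoblast and 9.55 in the myotube array (2.19-fold) and Trib3 9.09 in the array labelled myoblast and 8.10 in the myotube array (1.99-fold). Atf4 read 10.07 in the array labelled myoblast and 9.65 in the myotube array, and Slc7a1 11.04 in the array labelled myoblast and 10.42 in the myotube array, 1.54-fold lower. The genes at the other end were Stc2 with 8.80 in the array labelled myoblast and 9.37 in the myotube array and Ddit3 with 8.36 in the array labelled myoblast and 8.87 in the myotube array, each short of 1.5-fold higher. The chaperones Hspa5, at 13.09 in the array labelled myoblast and 12.89 in the myotube array, and Herpud1, at 11.67 in the array labelled myoblast and 11.89 in the myotube array, and the factor Xbp1, at 12.33 in the array labelled myoblast and 11.99 in the myotube array, differed by 0.34 or less. Asns, at 13.00 in the array labelled myoblast and 12.53 in the myotube array, was 1.39-fold lower. Among the further ATF4-linked genes, Cth was 2.94-fold and Slc1a5 2.16-fold lower in the myotube array.

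The control mean differed from the array labelled myoblast by at least 1.5-fold for 2 of the 37 genes, against 2.03% of all genes higher and 3.27% lower. Ddit3 was 0.62 higher in the control (8.98 ± 0.02, SD, n = 3, against 8.36), and Slc7a3 was 0.95 lower (9.07 ± 0.12 against 10.03). Whether the myotube markers of the array labelled myoblast bear on the values of the list was not tested. Transfection and culture conditions cannot be told apart in this comparison.

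**Figure D4:**
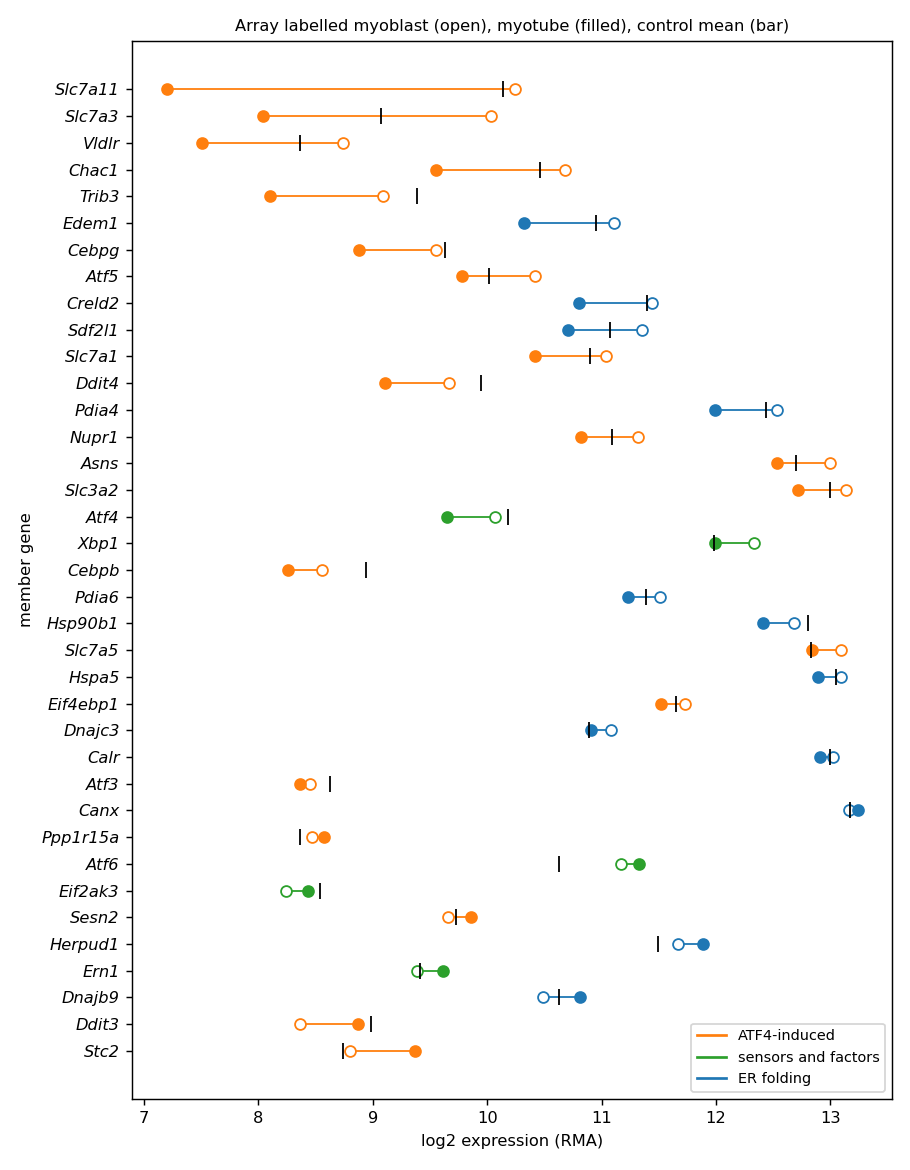
Log2 expression of the 37 genes in the untransfected array labelled myoblast (open circle), the myotube array (filled circle) and the mean of 3 control values (bar), sorted by the difference and coloured by role. Slc7a11, at the top, goes from 10.24 to 7.20, and Stc2, at the bottom, goes from 8.80 to 9.37.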

How the data were processed

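Gene expression was measured on 29 arrays of C2C12 RNA, 27 of them from transfected cells. The deposited log2 values were made by the authors with robust multi-array averaging in Affymetrix Expression Console 1.1, per the submitters' processing notes, and the background and quantile steps of that method assume that most genes do not change. Of 35556 probe sets, 21789 had 1 gene symbol, 1621 several and 12146 none, which gave 19938 genes. The number of arrays limits the precision.

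Each control array was averaged with its technical repeat. The 24 values in 8 groups were fitted with limma 3.58.1 (R 4.3.3; lmFit, eBayes with a trend) with group as the only term, and p-values were adjusted by Benjamini-Hochberg over all genes of each contrast. On simulated data for the miR-1 comparison, with 200 changed genes among 19938, the fit called 84% of changes of 0.5 and 99% of changes of 1 (log2), and 10 unchanged genes. The simulated noise was independent between samples, without the correlation by replicate number, and only miR-1 samples held changes. In the deposited values 23.7% of genes were called under miR-1, so these rates need not hold there.

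Values of every sample are given for the 12 genes with the widest range of group means and for Atf4, Ddit3, Trib3, Asns, Xbp1, Herpud1 and Hspa5, 18 in all, and of each further list at most 4 genes with the largest change are named. The genes and lists were chosen with earlier results of these data known. Aars, Pycr1, Gdf15, Eif2s1, Mbtps2 and Isg15 were not analysed here.

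The labels number the replicates alike in every group. Deviations of same-numbered samples correlated with those of the control above 0.1 in all 3 pairs for miR-22 (0.122 to 0.310), miR-29a (0.155 to 0.316), miR-34a (0.206 to 0.673) and miR-365 (0.301 to 0.616), and not for Let-7b, miR-1 and miR-145, so the blocked value is given for the former 4 where it changes a call. Let-7b, miR-1 and miR-145 each missed that cut in a single pair (0.0819, -0.0362 and -0.0355). The cut only decided what was printed, because the block belongs to the whole fit. For these mimics the block added calls too. Under Let-7b Sdf2l1, Pdia4 and Pdia6 were higher and Cebpg lower. Under miR-1 Atf3 (0.43, limma adjusted p = 0.0069), Slc3a2, Herpud1 and Edem1 were higher and Sdf2l1 lower. Ppp1r15a was higher under miR-145.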

Additional observations from a re-analysis of the deposited data

How the results depend on the processing

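Of the 91 calls of single genes against the control, 54 held in every alternative run and 37 were lost in at least 1, 17 of them only on leaving out a replicate. For the 126 pairs of a gene named with all its values and a mimic, 1764 alternatives gave the same direction and side of the threshold in 1677, lost the call in 60, added it in 27 and reversed none. Leaving out 1 replicate, the counts of called genes ranged from 14 to 18 for Let-7b, 11 to 15 for miR-1, 11 to 13 for miR-22, 10 to 14 for miR-29a, 5 to 9 for miR-34a, 3 to 5 for miR-145, 6 to 11 for miR-365 and 35 to 37 for the F test. Without the technical repeats the count was 16 for miR-1 and 7 for miR-145. With miR-145 and the control alone in the fit, 3 genes were called. At 2-fold in place of 1.5-fold, 4 genes differed between the myotube array and the array labelled myoblast. With the replicate number as a block the counts were 23 for Let-7b, 22 for miR-1, 19 for miR-22, 17 for miR-29a, 12 for miR-34a, 8 for miR-145 and 17 for miR-365. The block lost none of the 91 calls and added 27. Of the 24 values, 23 correlated best with a value of their own replicate number, a hint from the data and not from the design. Gene and mimic pairs that differed from the mean of the other 6 mimics numbered 127, and 156 with the block. With 1 array each, the untransfected comparison has no error estimate.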
